A study of Mus musculus with 34 samples.

Results

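The nuclear-encoded subunits of the mitochondrial respiratory chain were followed as a set of 67 genes in mouse embryonic stem (ES) cells with and without the MTA proteins, which are scaffolds of the NuRD chromatin remodelling complex. Members were chosen by symbol, with earlier results of these data known. They are the protein-coding genes named Ndufa, Ndufb, Ndufc, Ndufs or Ndufv plus a number and Ndufab1 (37 genes of complex I), Sdha to Sdhd (4 genes of complex II), the Uqcr genes (8 of complex III) and Cox4 to Cox8 (18 of complex IV). Counts by complex follow the names, so Ndufa4, now assigned to complex IV, is counted with the supernumerary subunits of complex I throughout. All 67 are among the 48709 genes listed for the Mta123KO set and the 22018 listed for the single-mutant set.

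RNA-seq libraries were made from 129/Ola ES cells in 34 samples. The first set holds 16 libraries, 4 each of Control and Mta123KO cells labelled 2iL (medium with inhibitors of Mek and Gsk3 plus LIF, which keeps ES cells self-renewing) and of the same genotypes labelled as 48 h in N2B27 medium without inhibitors or LIF. By the study's methods Control cells are heterozygous for the Mta1 deletion and homozygous for floxed Mta3, and Mta123KO cells lack Mta1, Mta2 and Mta3 after targeting and Cre deletion, so the controls themselves carry a deleted Mta1 allele. The second set holds 18 libraries labelled 2iL, 3 each of Mta1_del/del and Mta3_del/del cells, of their flox/flox parents, of Mta2_KO cells and of Mta2_WT cells.

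The respiratory chain passes electrons from NADH (complex I) or succinate (complex II) through complex III and cytochrome c to oxygen at complex IV, and the protons pumped on the way drive ATP synthase. Complex I has a catalytic core, part of it encoded in mitochondrial DNA, and many supernumerary subunits around it. Several complex IV subunits exist as isoforms that are restricted to heart, muscle, lung or testis. ES cells released from 2i/LIF pass from the naive to the formative state, and the balance of respiration and glycolysis is known to differ between these states.

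Total gene counts ran from 37855790 to 57602285 per library in the Mta123KO set and from 13105820 to 40613585 in the single-mutant set. Levels are given as CPM (counts scaled to a fixed library total) after TMM scaling within a set, and the 2 sets, which were scaled separately, were not compared. In the Mta123KO set the first part of the replicate number was read as the cell line, so each group of 4 holds 2 libraries of each of 2 lines, and libraries of a line are not independent. The chi-square per degree of freedom between libraries of the same line was 6.32 and 19.4 in Mta123KO labelled 2iL, against 87.0 to 112.8 between its lines. For this reason each count over all members of that set is also given with the libraries of a line summed. The counts by complex and of the other gene lists were not recomputed that way. Each share of all genes printed below belongs to the fit with TMM scaling and libraries kept apart. Counts under other settings stand without a share of all genes under the same setting. Fewer cells of a type and less RNA per cell cannot be told apart in such bulk libraries.

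The culture labels went against the marker genes. In Control, 8 of 8 naive pluripotency markers were higher in the libraries labelled 48 h (median log2 fold change 4.35) and 5 of 5 formative markers were lower (median -3.97). In Mta123KO the 8 naive markers were again all higher (median 2.09), and 4 of 5 formative markers fell (median over the 5 of -1.75). The names of the deposited files also give the opposite culture to the labels. All directions below follow the labels. A rise from the label 2iL to the label 48 h can thus not be read as a rise on leaving 2i/LIF, nor a fall as a fall. The genotype labels fitted the targeted genes: in Mta123KO labelled 2iL, Mta2 was lower by a log2 fold change of -4.17 ± 0.21 (SE), Mta3 by -1.76 ± 0.18 and Mta1 by -0.76 ± 0.18. In Mta2_KO the log2 fold change of Mta2 was -4.50 and in Mta3_del/del that of Mta3 was -2.63, both past correction, whereas that of Mta1 in Mta1_del/del was -0.97 and did not pass it.

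In Control labelled 2iL the 67 members together took 0.294% to 0.321% of the counts after TMM scaling. Their levels per kilobase of exon spanned several orders of magnitude. Cox8a, a small structural subunit of complex IV, was highest at 206.3 CPM per kb, followed by Cox6b1 (100.8), which bridges the complex IV monomers, Cox4i1 (94.9), a regulatory subunit, Cox6a1 (92.6) and the complex III subunit Uqcr10 (80.5). The lowest were 4 isoforms known from other tissues: Cox8c (0.0444 CPM per kb), Cox4i2 (0.191), the lung isoform of Cox4, Cox6a2 (0.204), a heart and muscle isoform, and Cox8b (0.569), also a heart and muscle isoform. Ndufab1, the mitochondrial acyl carrier protein, was the lowest member outside that group, at 2.35 CPM per kb over a union of exons of 6883 bases. The 4 subunits of complex II were all well expressed, with Sdhc at 20.5, Sdhb at 23.6, Sdha at 35.2 and Sdhd at 74.2 CPM per kb.

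**Figure D1:**
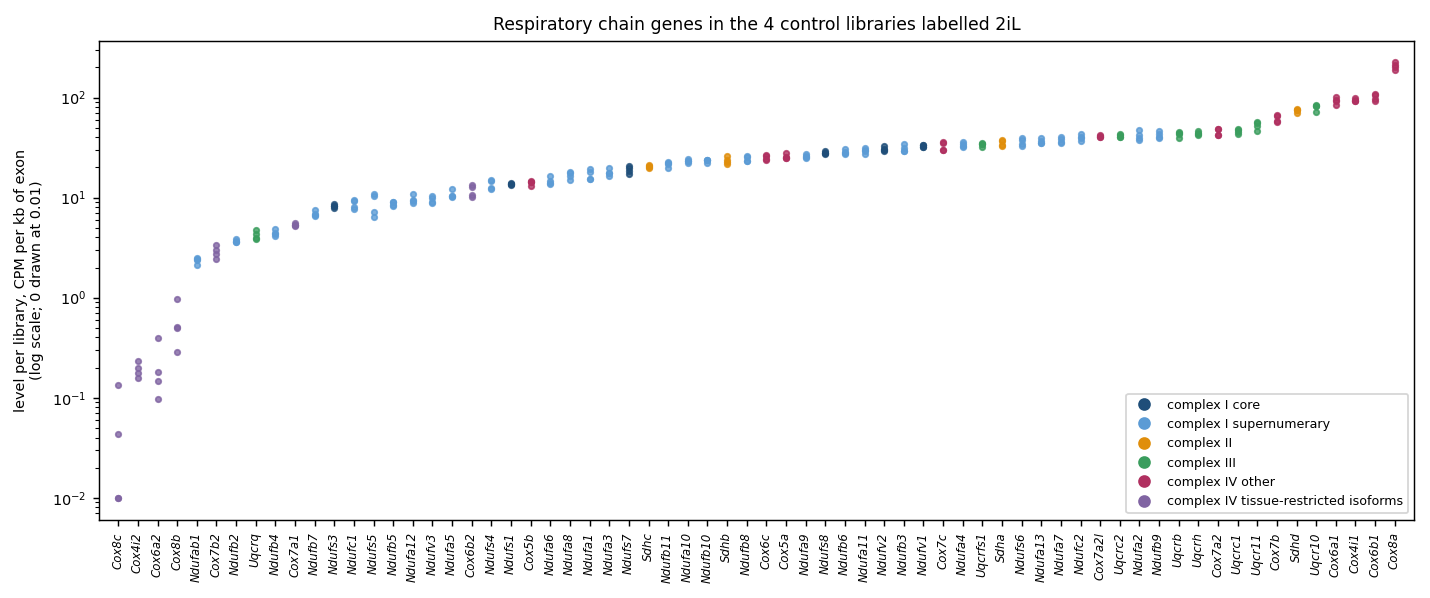
Level of the members by name (x axis) in the 4 control libraries labelled 2iL, in CPM per kb of exon on a log scale, 1 point a library, coloured by complex. The 4 lowest genes are tissue-restricted complex IV isoforms, and Cox8a is highest at a mean of 206.3 CPM per kb.

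The libraries labelled 48 h were first compared with those labelled 2iL in Control cells, the comparison that shows how the set moves with culture. More respiratory chain genes were higher than lower in the libraries labelled 48 h. Of 63 members tested, 31 were higher and 4 lower with edgeR's quasi-likelihood test at an adjusted p under 0.05, and the median log2 fold change was 0.16. Over all 21240 genes tested, 29.5% were higher and 29.0% lower and the median was 0.01. With libraries of a line summed, 20 members were higher and 3 lower. The summed level of the 67 genes was 3079.5 ± 122.7 CPM (SD, n = 4) in Control labelled 2iL and 3693.2 ± 93.4 CPM labelled 48 h, and the libraries of the groups did not overlap (2944.8 to 3206.8 against 3585.1 to 3795.1 CPM).

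By complex, 8 of the 11 broadly expressed complex IV subunits were higher and none was lower, with a median log2 fold change of 0.21. In complex III 4 of 8 were higher (median 0.23), in complex II 3 of 4 (median 0.23), in the complex I core 3 of 7 (median 0.09), and in the complex I supernumerary subunits 11 of 30, with 3 lower (median 0.12). Most of these differences were small, and only 2 members passed an absolute log2 fold change above 1, against 23.6% of all genes tested that passed both thresholds.

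Cox7a1, a complex IV isoform best known from heart and skeletal muscle, moved most. It was measured at 2.83, 2.98, 2.76 and 2.87 CPM in the libraries labelled 2iL and at 14.0, 16.3, 16 and 16.8 CPM in those labelled 48 h. The groups lay far apart with little spread inside them, and the log2 fold change was 2.46 ± 0.09 (SE, edgeR adjusted p = 6.01e-09).

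Cox5a, a nuclear-encoded complex IV subunit that binds a thyroid hormone metabolite, stood at 53.0, 58.9, 51.7 and 51.9 CPM labelled 2iL and 123.5, 120.2, 107.1 and 97.4 CPM labelled 48 h. It was the other member past a log2 fold change of 1, at 1.05 ± 0.08 (edgeR adjusted p = 1.18e-06). Cox6b1 went from 74.6, 76.6, 68.8 and 65.5 CPM to 132.3, 133.4, 124.4 and 117.8 CPM, a log2 fold change of 0.83 ± 0.07 (edgeR adjusted p = 1.46e-06). For these 3 genes every library labelled 48 h was above every library labelled 2iL, and the calls held with lines summed.

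In complex II 3 of the 4 genes were higher in the libraries labelled 48 h. Sdhb, the iron-sulfur subunit, was at 51.3, 58.3, 48.3 and 53.1 CPM labelled 2iL and 74.1, 81.5, 67.2 and 65.5 CPM labelled 48 h (log2 fold change 0.45 ± 0.08, edgeR adjusted p = 8.41e-04). Sdha, the flavoprotein subunit, rose by a log2 fold change of 0.31 ± 0.06 (edgeR adjusted p = 1.08e-03). Sdhd, a membrane anchor, had a difference of only 0.14 ± 0.05 (edgeR adjusted p = 0.0377), which did not pass with lines summed (adjusted p = 0.143), with DESeq2 size factors in edgeR (0.0505) or without 6 of the 8 libraries in turn. Sdhc, the other anchor, had a log2 fold change of 0.07 that did not pass the test.

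The 4 members that were lower in Control libraries labelled 48 h were Cox7b2, Ndufa2, Ndufb3 and Ndufa7. Cox7b2, a testis-enriched isoform, was measured at 1.61, 1.83, 1.33 and 1.48 CPM labelled 2iL and 0.728, 1.24, 0.626 and 1.01 CPM labelled 48 h (log2 fold change -0.81 ± 0.23, edgeR adjusted p = 0.0108). Ndufa2 and Ndufb3, supernumerary subunits of complex I, had log2 fold changes of -0.33 ± 0.08 and -0.27 ± 0.08. Scaling on the ERCC spike-ins in place of TMM moved the median of all genes to 0.18 and that of the members to 0.34, and then 21 members were higher and 1 lower. The log2 fold changes of Ndufa2 and Ndufb3 were -0.15 and -0.09 under that scaling and did not pass the test. The spike-in share varied between libraries of the same line, at 0.584% and 0.916% in Control line 1 labelled 48 h. Labelled 2iL the same line had 0.821% and 0.808%. Medians and calls under spike-in scaling, here and below, carry this spread and cannot be read as a shift of all genes.

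**Figure D2:**
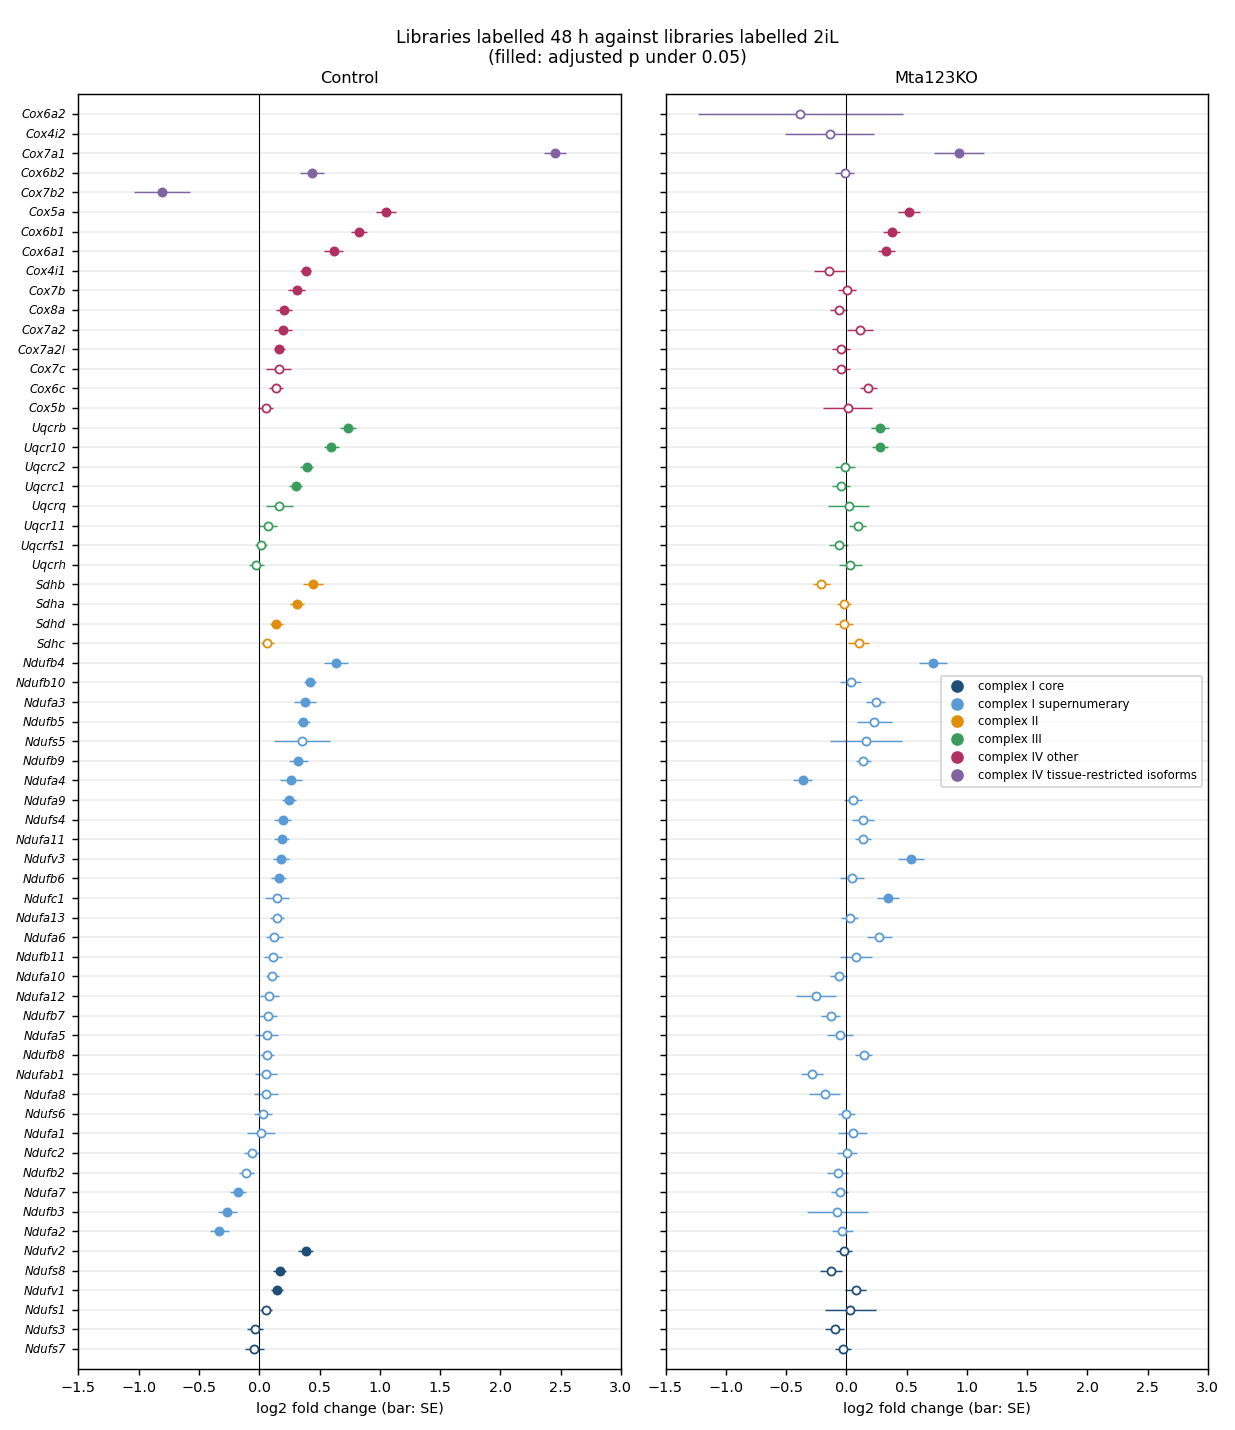
Log2 fold change of the members by name (y axis, by complex) between libraries labelled 48 h and labelled 2iL, in Control and in Mta123KO, with bars of 1 SE and filled points for an adjusted p under 0.05. In Control 31 members are filled to the right of 0 and in Mta123KO 9 are, and Cox7a1 is the farthest point in both panels.

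The same comparison in Mta123KO moved fewer members. Of 64 tested, 9 were higher and 1 lower (12.4% and 10% of all 21505 genes), and the median log2 fold change was 0.02 (0.00 over all genes). None passed an absolute log2 fold change above 1 as well, against 9.46% of all genes tested. With the replicate number as a block, which pairs libraries of the same line, 13 were higher and 3 lower. With libraries of a line summed no member passed, and 5 members had an unadjusted p under 0.05 in that edgeR fit. The summed level was 3138.0 ± 90.1 CPM labelled 2iL and 3241.6 ± 129.3 CPM labelled 48 h (n = 4 each), and the ranges of these groups overlapped (3015.0 to 3210.3 and 3128.8 to 3362.4 CPM).

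Cox7a1 led in Mta123KO too, at 2.91, 2.63, 1.56 and 2.34 CPM labelled 2iL and 4.45, 5.42, 3.92 and 4.27 CPM labelled 48 h. The groups did not overlap, and the log2 fold change was 0.93 ± 0.21 (edgeR adjusted p = 0.0141). Cox5a rose by 0.52 ± 0.09, Cox6b1 by 0.38 ± 0.07 and Cox6a1 by 0.33 ± 0.07 on the log2 scale, each higher in 4 of 4 same-numbered pairs. These pairs come from 2 lines, and none of these genes passed with lines summed.

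The next largest rises were in complex I. Ndufb4 had a log2 fold change of 0.72 ± 0.12 and Ndufv3, an accessory subunit near the NADH-binding site, one of 0.54 ± 0.11. Ndufb4 has a paralog, Ndufb4c, listed in this set beside it and more abundant (17.6 against 8.58 CPM in Control labelled 2iL), so how reads were shared between the copies limits its values. Ndufa4, named for complex I but now assigned to complex IV, was the only member called lower, at 64.4, 68.0, 59.2 and 57.9 CPM labelled 2iL and 46.6, 47.8, 51.6 and 48.1 CPM labelled 48 h (log2 fold change -0.36 ± 0.08, edgeR adjusted p = 0.0105).

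**Figure D3:**
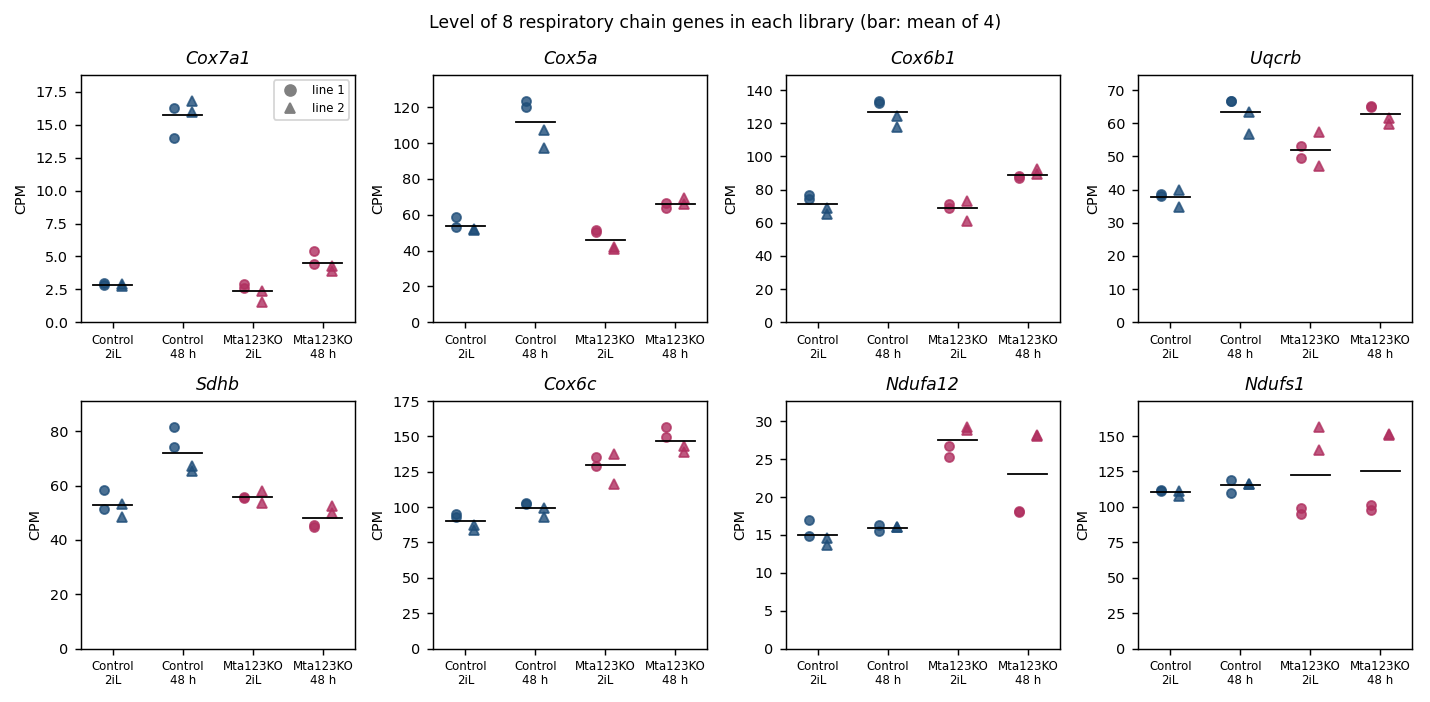
CPM of 8 members in each of the 16 libraries of the Mta123KO set (circles, line 1; triangles, line 2; bars, means of 4). Cox7a1, Cox5a, Cox6b1 and Sdhb are highest in Control labelled 48 h, Cox6c and Ndufa12 are higher in Mta123KO, and Ndufs1 lies apart between the Mta123KO lines.

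The difference between the genotypes in their change with culture was tested as an interaction over all 16 libraries. Negative values mean a smaller rise, or a larger fall, in Mta123KO from the libraries labelled 2iL to those labelled 48 h. Of 66 members tested, 2 were higher and 14 lower (12.5% and 10.6% of all 22973 genes), with a median of -0.12 against -0.00 over all genes. With lines summed no member passed, and 11 had an unadjusted p under 0.05 in edgeR. Spike-in scaling left 7 lower and none higher, with the median of all genes at -0.22 and that of members at -0.36.

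The 14 members came from every complex: 1 of the complex I core, 2 supernumerary subunits, 2 of complex II, 4 of complex III and 5 of complex IV. The 2 supernumerary subunits were Ndufb10 and, counted there by its name, Ndufa4. Cox7a1 had the largest value, -1.5 ± 0.22 (edgeR adjusted p = 1.67e-04; 0.0544 with lines summed). Sdhb rose in Control, as given above, and was at 56.0, 55.3, 53.5 and 57.9 CPM in Mta123KO labelled 2iL and 45.7, 44.7, 49.9 and 52.5 CPM labelled 48 h. Its interaction was -0.63 ± 0.11 (edgeR adjusted p = 8.82e-04; 0.107 with lines summed). Ndufa4 had an interaction of -0.61 ± 0.12, Cox5a -0.51 ± 0.13 and Cox4i1 -0.51 ± 0.14.

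Of the 2 positive values, that of Ndufv3 was 0.38 ± 0.13 (edgeR adjusted p = 0.0449) and that of Cox7b2 1.58 ± 0.54 (edgeR adjusted p = 0.0458). Both lost the call when most single libraries were left out, and Cox7b2 was under 1 CPM in all 8 Mta123KO libraries. The naive markers moved the same way in this test, with 6 of 8 lower (median -1.84), and the formative markers with 3 of 5 higher (median 2.07). Their part in the interaction of the respiratory chain genes was not tested.

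Mta123KO and Control cells were then compared under each culture label, which asks what differs without MTA proteins. The comparisons under the 2 labels use different libraries, but the Control libraries also entered the culture comparison above. In the libraries labelled 2iL the members moved in both directions. Of 65 tested, 15 were higher and 19 lower in Mta123KO (27.1% and 24.2% of 21651 genes), with a median log2 fold change of -0.04 against 0.01 over all genes. Counts fell to 3 higher and 1 lower with lines summed, and spike-in scaling gave 10 higher and 5 lower. The count of lower members fell to 12 and 11 without either of the Control libraries of line 1.

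In the complex I core the changes that passed the test were small falls. Ndufs7, Ndufv1, Ndufs3 and Ndufs8 were lower, none of the 7 core genes was higher, and their median was -0.19. The complex I supernumerary subunits were split, with 8 higher and 8 lower of 30. Complex III had 2 higher and 3 lower of 8, and the broadly expressed complex IV subunits had 2 higher and 1 lower of 11. In complex II Sdha was higher (0.35 ± 0.06) and Sdhc lower (-0.25 ± 0.06), with adjusted p of 0.102 and 0.176 when lines were summed in edgeR.

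Ndufa12, an accessory complex I subunit, was at 14.8, 17.0, 13.7 and 14.6 CPM in Control and 25.3, 26.7, 28.9 and 29.2 CPM in Mta123KO labelled 2iL. It had the largest rise among members at or above 1 CPM, a log2 fold change of 0.87 ± 0.09 (edgeR adjusted p = 7.15e-05). Cox6c, a complex IV subunit, was at 95.3, 93.3, 87.2 and 83.7 CPM in Control and 135.2, 129.1, 116.4 and 137.5 CPM in Mta123KO (0.53 ± 0.07, edgeR adjusted p = 3.59e-04). In both genes every Mta123KO library was above every Control library, and the calls held with lines summed.

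Cox6b2, a testis isoform of Cox6b1, also rose, from 11.2, 14.9, 11.8 and 14.2 CPM to 22.3, 21.5, 19.7 and 22.6 CPM (log2 fold change 0.73 ± 0.11). Cox7b2 fell most. Its levels in Control are given above, and in Mta123KO labelled 2iL it was at 0.276, 0.136, 0.22 and 0.13 CPM, a log2 fold change of -3.02 ± 0.27 (edgeR adjusted p = 3.99e-05). Cox4i2 was under 1 CPM in all 16 libraries, at a mean of 0.15 CPM in Control and 0.489 CPM in Mta123KO labelled 2iL, a log2 fold change of 1.70 ± 0.39 that did not pass with lines summed (adjusted p = 0.0651). Uqcrq, a small complex III subunit, was at 7.94, 7.04, 7.31 and 8.62 CPM in Control and 3.92, 4.71, 5.84 and 4.47 CPM in Mta123KO (-0.71 ± 0.14), and Ndufb4 was lower too (-0.64 ± 0.11).

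In the libraries labelled 48 h the balance leaned to lower levels in Mta123KO. Of 64 members tested, 6 were higher and 28 lower (26.6% and 23.4% of 21079 genes), with a median log2 fold change of -0.17 against 0.00 over all genes. With lines summed 1 was higher and 7 were lower. Spike-in scaling gave 1 higher and 18 lower, with the median of all genes at -0.18 and that of members at -0.36. The count of higher members fell to 3 without the second Control library of line 2.

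The lower members lay in all 4 complexes: 5 of 7 in the complex I core, 7 of 30 supernumerary subunits, 2 of 4 in complex II, 6 of 8 in complex III and 6 of 11 broadly expressed complex IV subunits. Cox7a1 was lower by a log2 fold change of -1.78 ± 0.12 (edgeR adjusted p = 9.26e-06), Uqcrq by -0.84 ± 0.15 and Cox5a by -0.74 ± 0.08 (edgeR adjusted p = 1.13e-04). Sdhb was lower by -0.56 ± 0.09, which missed the threshold with lines summed (adjusted p = 0.0508), and Sdhd by -0.17 ± 0.06.

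Among the core proteins of complex III, Uqcrc1 went from 236.1 CPM in Control to 165.4 CPM in Mta123KO (means of 4; log2 fold change -0.50 ± 0.06) and Uqcrc2 had a log2 fold change of -0.20 ± 0.06. Uqcrfs1, the Rieske iron-sulfur protein, had one of -0.20 ± 0.07.

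Cox6c and Ndufa12 were higher under this label as well. Cox6c was at 102.9, 102.1, 99.1 and 93.0 CPM in Control and 156.4, 149.6, 143.3 and 138.9 CPM in Mta123KO (0.59 ± 0.06, edgeR adjusted p = 9.85e-05; 0.0325 with lines summed and 0.122 with spike-in scaling). Ndufa12 was at 15.5, 16.3, 16.1 and 16 CPM in Control, but its Mta123KO libraries fell apart by line, at 18 and 18.2 CPM in line 1 and 28 and 28.2 CPM in line 2. Its log2 fold change of 0.55 ± 0.16 did not pass with lines summed (adjusted p = 0.165). Ndufa1, an X-linked accessory subunit, had a log2 fold change of 0.33 ± 0.12 that lost its call with the replicate block (adjusted p = 0.0544), without a filter (0.094) and without 7 of the 8 libraries in turn.

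Of the other tissue-restricted isoforms, Cox6b2 rose again (0.29 ± 0.07), Cox4i2 rose (1.42 ± 0.44; 0.167 and 0.447 CPM) and Cox7b2 fell (-1.44 ± 0.43; 0.9 and 0.318 CPM). None of these 3 passed with lines summed. Cox6a2, Cox8b and Cox8c stayed under 1 CPM in all 34 libraries and mostly did not pass the filter on low counts.

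**Figure D4:**
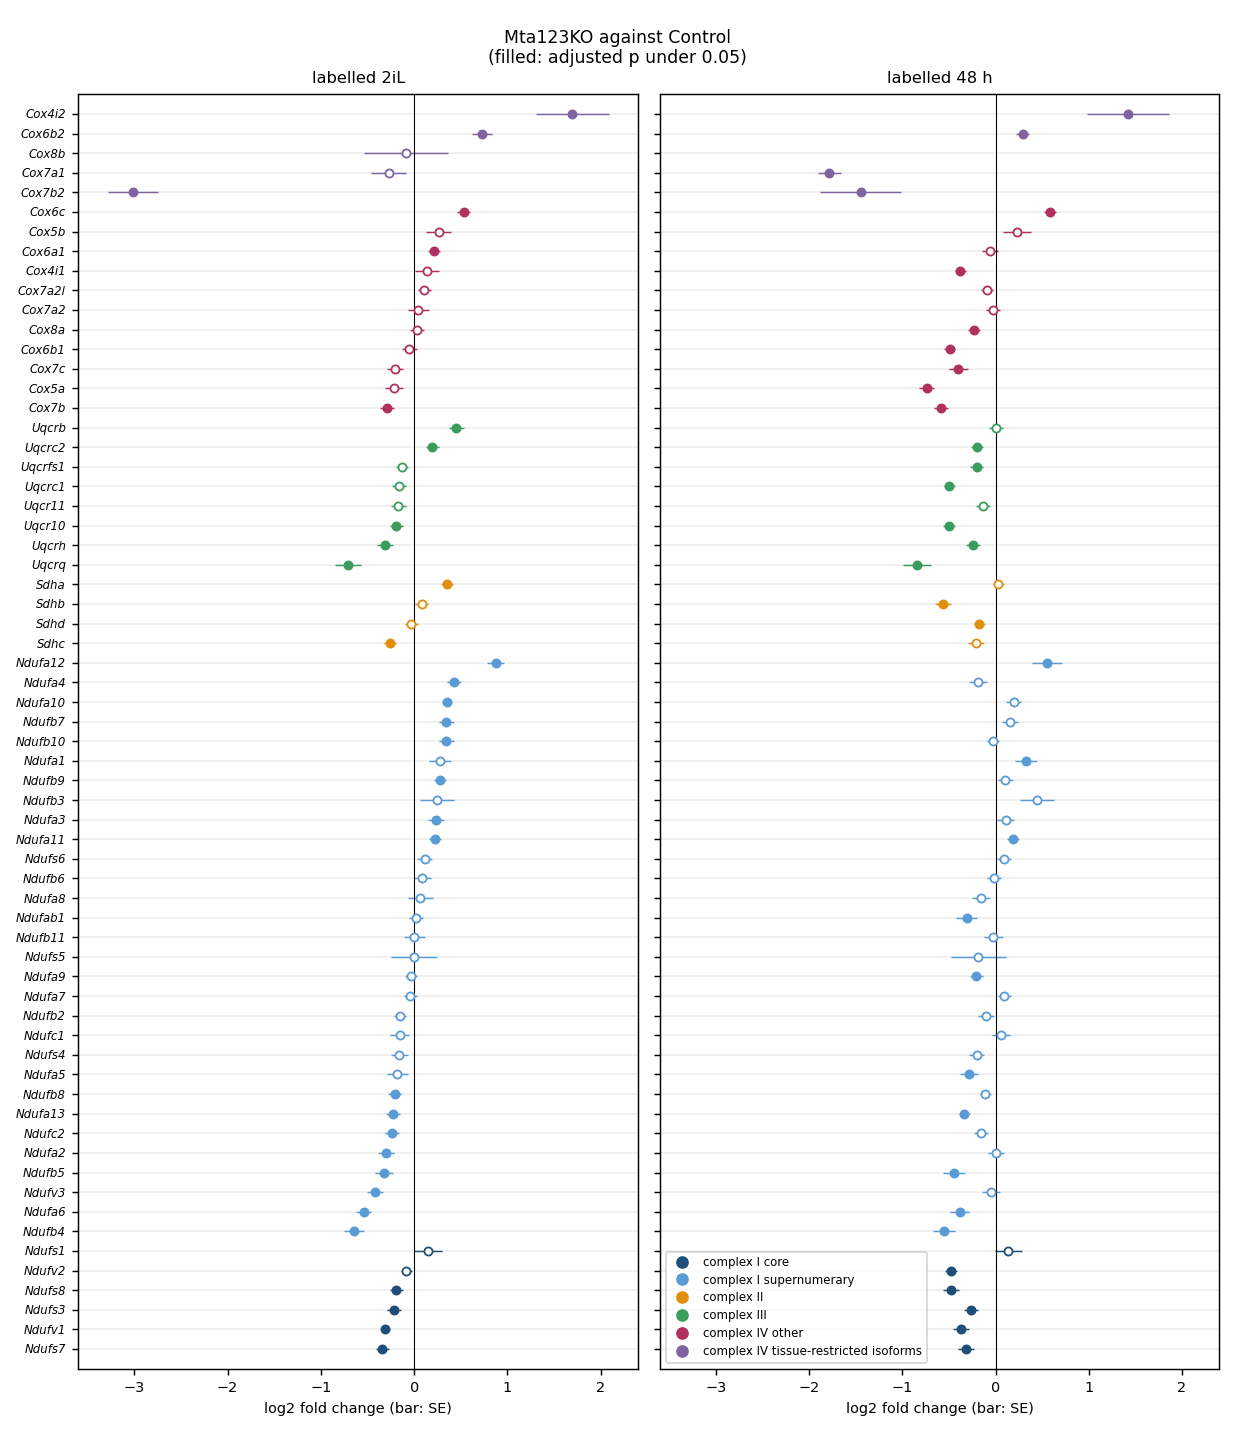
Log2 fold change of the members by name (y axis, by complex) between Mta123KO and Control in the libraries labelled 2iL and labelled 48 h, with bars of 1 SE and filled points for an adjusted p under 0.05. Cox7b2 is the farthest point to the left labelled 2iL, at -3.02, and Cox7a1 is so labelled 48 h, at -1.78.

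Some of the spread within Mta123KO went with the line. Ndufs1, the largest complex I core subunit, was at a mean of 97.1 CPM in line 1 and 148.1 CPM in line 2 labelled 2iL, and at 99.5 and 150.9 CPM labelled 48 h. Ndufb3 stood at 21.5 and 34.3 CPM and Cox5b at 21.9 and 31.8 CPM in the lines labelled 2iL. These 3 genes lie on chromosome 1, where the median log2 ratio of line 1 to line 2 was -0.23 over all genes at 1 CPM or more, and Ndufa10 and Sdhc, which also lie there, had log2 ratios of -0.08 and -0.15. In Control the largest difference between lines was that of Ndufs5 on chromosome 4, 0.64 labelled 2iL and 0.74 labelled 48 h, and in Mta123KO Ndufs5 differed the other way, by -0.72 and -0.95. Such line differences are descriptions of 2 libraries each and were not tested.

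Other genes of energy metabolism were measured beside the nuclear-encoded chain. Of all genes tested, 27.1% were higher and 24.2% lower in Mta123KO labelled 2iL, and 26.6% and 23.4% labelled 48 h. With culture in Control 29.5% were higher and 29.0% lower. All 13 protein-coding genes of mitochondrial DNA were higher in Mta123KO, with a median log2 fold change of 0.78 labelled 2iL and 1.01 labelled 48 h, beside members' medians of -0.04 and -0.17. Of 17 ATP synthase genes, 3 were higher and 2 lower labelled 2iL and 2 higher and 6 lower labelled 48 h, and in the culture comparison in Control 12 were higher and 2 lower (median 0.23). Of 47 assembly factors, 6 were higher and 15 lower labelled 2iL, 5 and 13 labelled 48 h, and 13 and 7 with culture in Control. Of 20 genes of glucose uptake and glycolysis, 3 were higher and 15 lower in Mta123KO labelled 2iL, 2 and 12 labelled 48 h, and 4 and 11 with culture in Control. Of 76 cytosolic ribosomal protein genes, 2 were higher and 51 lower labelled 2iL and 61 lower labelled 48 h, so small lower values in Mta123KO were not limited to the respiratory chain. Protein-coding genes with under 1000 bases of exon had medians of -0.05 and -0.07 in the same comparisons.

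Markers of cell state and of other cells moved with the genotype. All 4 trophoblast markers were higher in Mta123KO labelled 2iL (median log2 fold change 3.52) and 3 of 4 labelled 48 h (median 3.71). Their summed level was 12.4 to 14.0 CPM in Control and 56.8 to 356.3 CPM in Mta123KO labelled 2iL, and 8.47 to 10.2 and 124.6 to 696.9 CPM labelled 48 h. The Mta123KO values lay apart by line, at 313.3 and 356.3 CPM in line 1 and 56.8 and 62.3 CPM in line 2 labelled 2iL. Labelled 48 h, line 1 was at 660.3 and 696.9 CPM and the first library of line 2 at 124.6 CPM. Pou5f1 and Sox2 summed to 305.2 and 290.4 CPM in line 1 and 510.7 and 494.3 CPM in line 2 of Mta123KO labelled 2iL. Of 2 fibroblast markers tested, 2 were higher labelled 2iL (summed level 1.19 to 2.45 CPM in Control and 6.26 to 7.66 CPM in Mta123KO) and 1 labelled 48 h. Labelled 2iL, 2 of 3 neural and 2 of 3 primitive endoderm markers were lower and 5 of 8 naive markers were higher. Labelled 48 h, 1 of 3 neural and 1 of 3 primitive endoderm markers was higher and 1 lower in each list, and 6 of 8 naive markers were lower. The summed level of the formative markers was 843.0 to 1402.3 CPM in Control and 232.4 to 339.0 CPM in Mta123KO labelled 2iL. Labelled 48 h it was 76.6 to 88.8 CPM in Control. In Mta123KO labelled 48 h it was 116.1 and 113.9 CPM in line 1 and 80.3 CPM in the first library of line 2. With culture in Control the summed level of the neural markers was 74.2 to 95.7 CPM labelled 2iL and 24.6 to 29.0 CPM labelled 48 h. Their part in the changes of the respiratory chain genes was not tested.

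Genes of transcription factors and cofactors known to act on respiratory chain genes were measured beside them. Of 16 tested in Control, 5 were higher and 3 lower in the libraries labelled 48 h, against 29.5% and 29.0% of all genes tested. Gabpa, the DNA-binding subunit of NRF-2, had a mean of 107.0 CPM labelled 2iL and 168.6 CPM labelled 48 h in Control (log2 fold change 0.65 ± 0.05, edgeR adjusted p = 1.59e-06). In Mta123KO labelled 48 h it was lower than in Control (107.6 CPM; -0.63 ± 0.06). Esrrb, an orphan receptor that is also among the naive markers, was higher in the Control libraries labelled 48 h by a log2 fold change of 3.44 ± 0.15. Nrf1, the nuclear respiratory factor, differed by 0.06 ± 0.05 and did not pass the test. Myc was lower in the Control libraries labelled 48 h, by -3.03 ± 0.41.

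The letters of 4 motifs were searched on both strands in RefSeq promoters of build GRCm38.p6, from 250 bases before to 50 after the start, which were given for 54 of the 67 members among 27025 symbols. The NRF1 core GCATGCGC was in 7 members (13%, against 3.05% of all symbols), the ETS motif CCGGAAG in 11 (20.4% against 9.93%), the YY1 motif AAGATGGC in 7 (13% against 3.19%) and the ERR motif TCAAGGTCA in 1 (1.85% against 0.466%). All 7 YY1 matches lay 22 to 45 bases after the start, on the gene's strand. The 250 bases before the start are shown for Cox7a1, the member that moved most with culture, for Cox6b1 and Cox6a1, which rose in both genotypes, and for Sdhb, which rose in Control alone by the test and had an interaction past the threshold. Capitals mark matches to GCATGCGC or CCGGAAG on either strand. Coordinates are chr7:30183921-30184170 on the plus strand for Cox7a1, chr7:30626115-30626364 on the minus strand for Cox6b1, chr5:115348959-115349208 on the minus strand for Cox6a1 and chr4:140961021-140961270 on the plus strand for Sdhb, and each sequence reads 5′ to 3′ on the gene's strand.
Cox7a1: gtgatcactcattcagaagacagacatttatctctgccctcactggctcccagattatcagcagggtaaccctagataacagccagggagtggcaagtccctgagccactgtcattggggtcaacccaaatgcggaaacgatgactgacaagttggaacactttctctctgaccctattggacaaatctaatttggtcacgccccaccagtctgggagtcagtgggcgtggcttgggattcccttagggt
Cox6b1: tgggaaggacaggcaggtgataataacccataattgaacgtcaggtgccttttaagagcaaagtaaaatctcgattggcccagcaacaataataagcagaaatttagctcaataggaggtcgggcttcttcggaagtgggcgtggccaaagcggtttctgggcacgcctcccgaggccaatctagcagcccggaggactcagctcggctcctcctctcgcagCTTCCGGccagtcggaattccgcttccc
Cox6a1: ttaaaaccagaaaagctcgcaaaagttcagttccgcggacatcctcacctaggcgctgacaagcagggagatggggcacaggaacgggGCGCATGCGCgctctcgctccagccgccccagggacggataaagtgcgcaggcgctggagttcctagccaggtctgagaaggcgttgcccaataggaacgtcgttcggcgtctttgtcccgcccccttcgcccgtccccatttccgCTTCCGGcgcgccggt
Sdhb: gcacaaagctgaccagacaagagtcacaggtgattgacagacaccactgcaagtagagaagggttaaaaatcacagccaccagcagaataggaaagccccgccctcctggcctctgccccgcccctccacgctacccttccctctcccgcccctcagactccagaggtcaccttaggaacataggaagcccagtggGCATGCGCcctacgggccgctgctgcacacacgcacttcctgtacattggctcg
Cox6a1 held overlapping forward and reverse matches to the NRF1 core and an ETS match, Sdhb an NRF1 core match and Cox6b1 an ETS match. An ETS match of Sdhb lay 6 to 12 bases after the RefSeq start, outside the stretch shown. The GENCODE starts lay upstream of these RefSeq starts, by 68 bases in Sdhb, 37 in Cox6b1, 27 in Cox7a1 and 23 in Cox6a1. By GENCODE, the marked matches of Sdhb and Cox6b1 and the ETS match of Cox6a1 thus lay after the start. In the Cox7a1 window none of the 4 motifs was found. A match describes letters in the sequence and not a bound site. Other members, Cox5a among them, also rose in both genotypes and are not shown. Matches in these 4 stretches thus do not stand for the set.

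Single MTA mutants in 2iL were compared with their parents. In Mta1_del/del no member was called in 64 tested with edgeR, nor was any of 14561 genes (0.0% in both directions). No member had an unadjusted p under 0.05 in edgeR, DESeq2 called no member, and the median log2 fold change was 0.02 (range -0.47 to 0.52). With 3 libraries against 3, this does not show equal levels.

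In Mta2_KO, which the study derived as 1 line, 12 members were higher and 10 lower of 63 tested (23.5% and 24.3% of 15602 genes), with a median of 0.01 against 0.00 over all genes. When all 18 libraries entered 1 fit, 1 was higher and 3 were lower. Without single libraries the lower members numbered 6 (without Mta2_KO 1, Mta2_KO 3 or Mta2_WT 1) to 17 (without Mta2_KO 2, when 7 were higher). No complex moved as a whole: 1 complex II gene was higher and 2 lower, and the complex I core had 2 lower of 7.

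Markers of cell state and of other cells moved with this comparison as well. Of 4 trophoblast markers 3 were lower, with a summed level of 36.3 to 38.9 CPM in Mta2_WT and 5.65 to 7.8 CPM in Mta2_KO. Of 3 neural markers 2 were higher and 1 lower (summed level 20.8 to 27.6 and 57.9 to 63.0 CPM), and 2 of 3 primitive endoderm markers were lower (3.07 to 3.85 and 1.69 to 1.83 CPM). Of 8 naive markers 1 was higher and 6 lower (4644.9 to 5108.0 and 3419.2 to 3631.2 CPM). The groups did not overlap in these 4 sums, and their part in the changes of the members was not tested.

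The largest falls in Mta2_KO were in the 2 members on chromosome 3. Ndufb5, an accessory subunit of the complex I membrane arm, was at 157.4, 157.6 and 153.2 CPM in Mta2_WT and 81.4, 93.3 and 83.2 CPM in Mta2_KO, a log2 fold change of -0.85 ± 0.05 (edgeR adjusted p = 1.09e-06). Ndufc1 was at 33.1, 29.5 and 29.1 CPM in Mta2_WT and 20.6, 22.5 and 20.7 CPM in Mta2_KO (-0.52 ± 0.07, edgeR adjusted p = 2.24e-04). The groups did not overlap in either gene. The median over all 736 genes tested on chromosome 3 was -0.50, and that of every other chromosome lay within 0.1 of 0, so both values cannot be told apart from a difference of the whole chromosome between these lines.

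**Figure D5:**
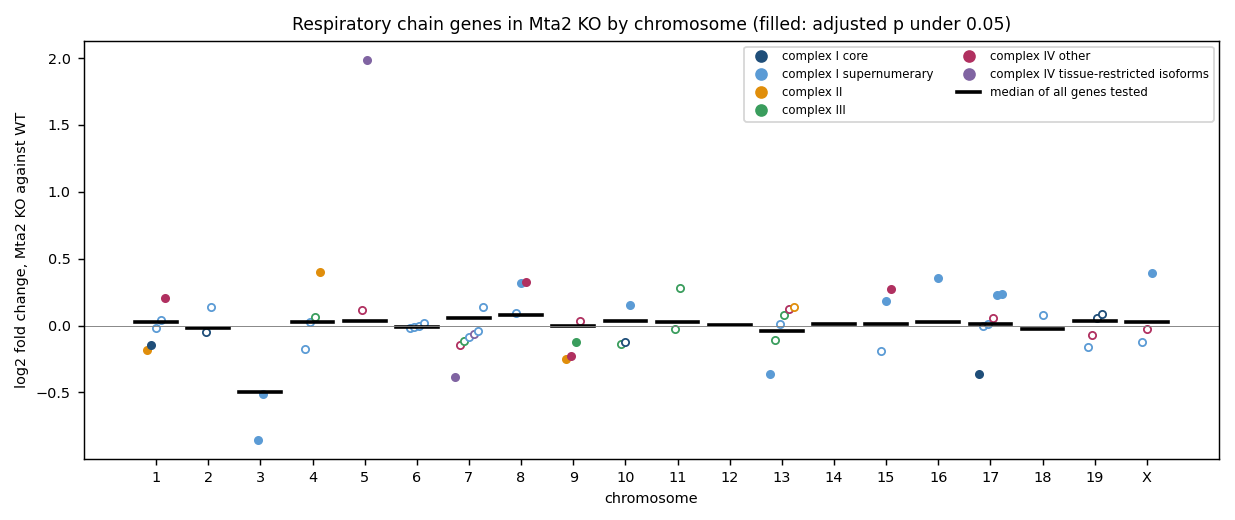
Log2 fold change of the members between Mta2_KO and Mta2_WT, by chromosome, with filled points for an adjusted p under 0.05 and black bars for the median of all genes tested on that chromosome. The bar of chromosome 3 is at -0.50, with Ndufb5 below it at -0.85 and Ndufc1 close to it at -0.52.

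Outside chromosome 3, Sdhb was at 84.6, 85.5 and 79.7 CPM in Mta2_WT and 103.2, 116.9 and 107.0 CPM in Mta2_KO (log2 fold change 0.40 ± 0.05, edgeR adjusted p = 1.28e-04; adjusted p = 0.0624 in 1 fit of all 18 libraries). Sdhd and Sdhc were lower by -0.25 ± 0.05 and -0.18 ± 0.06. Cox7b2 rose from 0.115, 0.314 and 0.341 CPM to 1.05, 1.6 and 0.391 CPM (1.99 ± 0.56), and its call was lost without any of 3 single libraries (Mta2_KO 1, Mta2_KO 2 or Mta2_WT 1; adjusted p = 0.0504, 0.0751 and 0.0581). Ndufa1 rose by 0.39 ± 0.11, and Cox6b2 was lower by -0.39 ± 0.06.

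In Mta3_del/del 6 members were higher and 1 lower of 63 tested (8.32% and 7.84% of 15522 genes), with a median log2 fold change of 0.17 against -0.01 over all genes. None was called with an absolute log2 fold change above 1, against 6.06% of all genes tested. The median of the 430 protein-coding genes with under 1000 bases of exon was 0.17 too, and the part of exon length in the result was not tested. Higher were Ndufa5, Uqcrh, Ndufv3, Cox6b1, Uqcrb and Cox7b. Uqcrh, the hinge protein of complex III, was at 44.7, 48.1 and 49.6 CPM in the flox/flox parent and 75.7, 71.6 and 85.6 CPM in Mta3_del/del, without overlap (0.66 ± 0.10, edgeR adjusted p = 0.0151). Ndufa5 was at 11.4, 11.4 and 13.4 CPM in the parent and 19.5, 17.0 and 31.5 CPM in Mta3_del/del (0.86 ± 0.23, edgeR adjusted p = 0.0390), and without Mta3_del/del 3 its log2 fold change was 0.55 (adjusted p = 0.105). Cox6b2 was the 1 lower member, at 38.5, 27.2 and 46.0 CPM in the parent and 21, 24.8 and 19.8 CPM in the mutant (-0.81 ± 0.19).

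The calls in Mta3_del/del depended on single libraries. Without Mta3_del/del 1 no member was higher, without Mta3_del/del 3, flox/flox 2 or flox/flox 3 there was 1, and without flox/flox 1 there were 2. In 1 fit of all 18 libraries 11 members were higher and none lower. The summed level of the members was 3856.9 to 4893.0 CPM in the parent and 4593.7 to 5647.5 CPM in Mta3_del/del, so the groups overlapped. Summed marker levels that did not overlap were those of the fibroblast markers (10.6 to 37.6 CPM in the parent and 5.67 to 6.24 CPM in Mta3_del/del, 1 of 3 tested lower), the primitive endoderm markers (8.27 to 9.27 and 4.42 to 6.3 CPM, 1 of 3 lower) and the naive markers (3260.1 to 3980.0 and 4029.7 to 4719.0 CPM, none of 8 called). Their part in the members' values was not tested.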

How the data were processed

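The deposited files hold raw counts, 1 whole number for each gene and library, with no scaling by the authors. Per the study's methods, reads were trimmed with Trim Galore, aligned to GRCm38/mm10 with TopHat2 and counted with featureCounts on an Ensembl annotation. The Mta123KO set was read paired-end with ERCC spike-ins (0.584% to 1.0% of counts) and the single-mutant set single-end. How reads that align to several places, and strand, were handled in counting is not given in the sources used here, which limits genes with close copies. Symbols, exon lengths and positions came from GENCODE vM21 (GRCm38), matched by identifier. For testing, edgeR 4.0.16 in R 4.3.3 was used (TMM, filterByExpr and the quasi-likelihood test). Each fit held just the groups of its comparison, with Benjamini-Hochberg adjustment over all genes tested. The procedure was tested on simulated data. CPM are TMM-scaled within a set.

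Members and lists were chosen with earlier results of these data known. Named in each comparison are up to 3 rises and 3 falls, largest by log2 fold change, among called members that reached 1 CPM in either group and moved one way in all pairs of equal number. Also named are the 5 highest and 5 lowest members per kb, all complex II genes and tissue-restricted isoforms, and members on a chromosome whose median exceeded 0.2 in size. Uqcrc1, Uqcrc2, Uqcrfs1, Cox4i1, Ndufs5, Uqcrb and members listed to complete a count were named after their values were seen. One member enters the counts, medians and summed levels but is not reported here by name or drawn. Samples were grouped by the labels' genotype and culture. Same-numbered libraries of the 2 cultures come from the same line, which pairs them: the mean correlation of their deviations from group means was 0.374 in Control and 0.636 in Mta123KO. The numbers also paired Mta1_del/del with its parent (0.44 to 0.725). Nothing says that libraries of a single-mutant group came from separate cultures, so their p-values measure the spread between libraries, which may be technical. Alternatives were DESeq2 1.42.0, DESeq2 size factors in edgeR, no filter, the replicate block, each library left out, 1 fit of all 18 single-mutant libraries, summed lines, spike-in scaling and a fold threshold. For Mta123KO against Control, summed lines and spike-in scaling were chosen after seeing the data.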

Additional observations from a re-analysis of the deposited data

Results flagged for a closer look

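In groups of 4 libraries, 105 groups of a named member at 1 CPM or more on average were examined for a library far from the others, and chance flags about 1 in 20. It was found in 4. Ndufa5 had 1 Control library labelled 2iL at 12.6 CPM and 1 Mta123KO library labelled 48 h at 8.89 CPM, Uqcrh 1 Mta123KO library labelled 2iL at 36.9 CPM and Cox4i1 1 Mta123KO library labelled 48 h at 152 CPM.

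The change with culture differed between Control and Mta123KO, by the interaction test, in 16 members. On the log2 scale the interaction was -1.5 for Cox7a1, -0.63 for Sdhb, -0.61 for Ndufa4, -0.51 for Cox5a, -0.51 for Cox4i1, -0.44 for Uqcrb, -0.43 for Cox6b1, -0.43 for Cox6b2, -0.39 for Ndufv2, -0.38 for Uqcrc2, -0.36 for Ndufb10, -0.32 for Uqcrc1, -0.31 for Sdha and -0.30 for Uqcr10. It was 0.38 for Ndufv3 and 1.58 for Cox7b2. None of the 16 passed with libraries of a line summed.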

How the results depend on the processing

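Of 762 values for single named members under an alternative, 634 kept their call and 128 kept their direction but missed the threshold, and none changed direction. Most named members were picked for large called changes in these same libraries, which favours a kept direction, so this is no independent check. Of 349 counts and medians, 272 stayed within 1.5 times of the reported count or 1 spread, and 77 moved. The causes were not tested, beyond fewer libraries or genes where the alternative uses fewer.

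With a log2 fold change above 1 required, higher and lower members numbered 1 and 1 (Mta123KO labelled 2iL), 1 and 2 (labelled 48 h), 2 and 0 (culture, Control), 0 and 0 (culture, Mta123KO), 1 and 1 (interaction), 1 and 0 (Mta2) and 0 and 0 (Mta3). With lines summed they numbered 3 and 1, 1 and 7, 20 and 3, 0 and 0, and 0 and 0 in the first 5 comparisons. With spike-in scaling they numbered 10 and 5, 1 and 18, 21 and 1, 2 and 0, and 0 and 7, with members' medians of -0.356 (labelled 48 h), 0.339 (culture, Control) and -0.357 (interaction). DESeq2 and the replicate block each gave 3 lower in the culture comparison in Mta123KO. In the interaction the block and size factors each left 1 higher and no filter left 0. In Mta3 the block gave 10 higher and 0 lower, no filter 2 lower and 1 fit of all 18 libraries 11 higher and 0 lower. In Mta2 that fit gave 1 higher and 3 lower. It could not be run for Mta123KO against Control, whose libraries are not in that set. Apart from the fold threshold, no share of all genes under the same setting stands beside these counts. Whether members gained or lost calls more than all genes did cannot be read from them.

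Leaving out single libraries gave 11 to 15 higher and 11 to 18 lower (median -0.078 to -0.024) in Mta123KO labelled 2iL, 3 to 7 and 21 to 27 (-0.185 to -0.142) labelled 48 h, 22 to 31 and 3 to 4 (0.132 to 0.176) for culture in Control, 7 to 8 and 1 to 2 (-0.01 to 0.045) in Mta123KO, and 0 to 2 and 12 to 17 (-0.141 to -0.072) for the interaction. It gave 0 and 0 (0.002 to 0.066) in Mta1, 7 to 11 and 6 to 17 (-0.038 to 0.034) in Mta2, and 0 to 9 and 0 to 1 (0.102 to 0.288) in Mta3. The second lower member for culture in Mta123KO appeared without its first library of line 2 labelled 48 h.

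Same-numbered libraries did not deviate together in every pair for Mta123KO against Control (mean correlation -0.136 labelled 2iL and -0.0501 labelled 48 h), Mta2 (-0.223 to 0.397) and Mta3 (-0.146 to 0.321). The replicate block there gave 14 and 13, 4 and 23, 10 and 9, and 10 and 0 members. In the paired comparisons it gave 35 and 4 for culture in Control and 0 and 0 in Mta1. Depth limits the isoforms under 1 CPM most.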
